A study of Mus musculus with 29 samples.

Results

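A set of 10 genes of the cardiac fibroblast was followed across the 8 genotype-by-condition groups of a mouse heart RNA-seq series: 5 taken as identity genes (Pdgfra, Tcf21, Dpt, Mfap4 and Mfap5) and 5 taken as activation genes (Meox1, Wisp1, Wisp2, Wif1 and Comp). They were taken by symbol, and all 10 were found among the 23420 genes counted in each library. The hearts came from C57BL/6J mice labelled 12 weeks old and carried combined ablation of PKCδ and PKCε, ablation of PKCδ in the heart after birth, germline knockout of PKCε, or neither (wild type). Some hearts of each genotype had undergone TAC (transverse aortic constriction) 4 weeks earlier, an operation that narrows the aorta and makes the left ventricle pump against raised pressure, and others were unstressed. TAC groups held 4 combined, 3 PKCδ, 4 PKCε and 4 wild-type libraries, and unstressed groups held 4, 3, 3 and 4 in the same order of genotypes. The labels name no promoter or Cre line for the PKCδ ablation and no sham operation for unstressed hearts. Per the extraction protocol RNA came from the ventricular apex, although the tissue is labelled as whole heart.

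Cardiac fibroblasts make and tend the collagen matrix between muscle cells. In a pressure-loaded heart some of them become activated, secreting more matrix and, at the far end of that path, contractile proteins. Pdgfra encodes the receptor for PDGF that is widely used to mark resident fibroblasts, and Tcf21 encodes a basic helix-loop-helix transcription factor needed for fibroblasts to form from the epicardium. Dpt (dermatopontin), Mfap4 and Mfap5 encode proteins of the extracellular matrix, Mfap4 and Mfap5 being partners of elastic microfibrils. Meox1 encodes a homeobox transcription factor of activated fibroblasts. Wisp1 and Wisp2 (also named Ccn4 and Ccn5) encode secreted CCN proteins, Wif1 encodes a secreted inhibitor of WNT ligands, and Comp encodes the pentameric thrombospondin of cartilage and tendon matrix.

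After TAC the 10 genes did not divide along the line between identity and activation. Mfap4 and Mfap5, placed with the identity genes, stood far higher after TAC together with Meox1, Wisp2 and Comp, whereas Wisp1 and Wif1, placed with the activation genes, did not. Pdgfra, Tcf21 and Dpt differed by less than 1 log2 unit in every genotype. All 15 TAC libraries lay above all 14 unstressed libraries for Mfap4, Mfap5, Meox1 and Wisp2, a separation that 4.97% of the 13765 genes tested showed in either direction, and 14 of 15 did so for Comp. The plot of levels by library shows each of these separations.

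**Figure D1:**
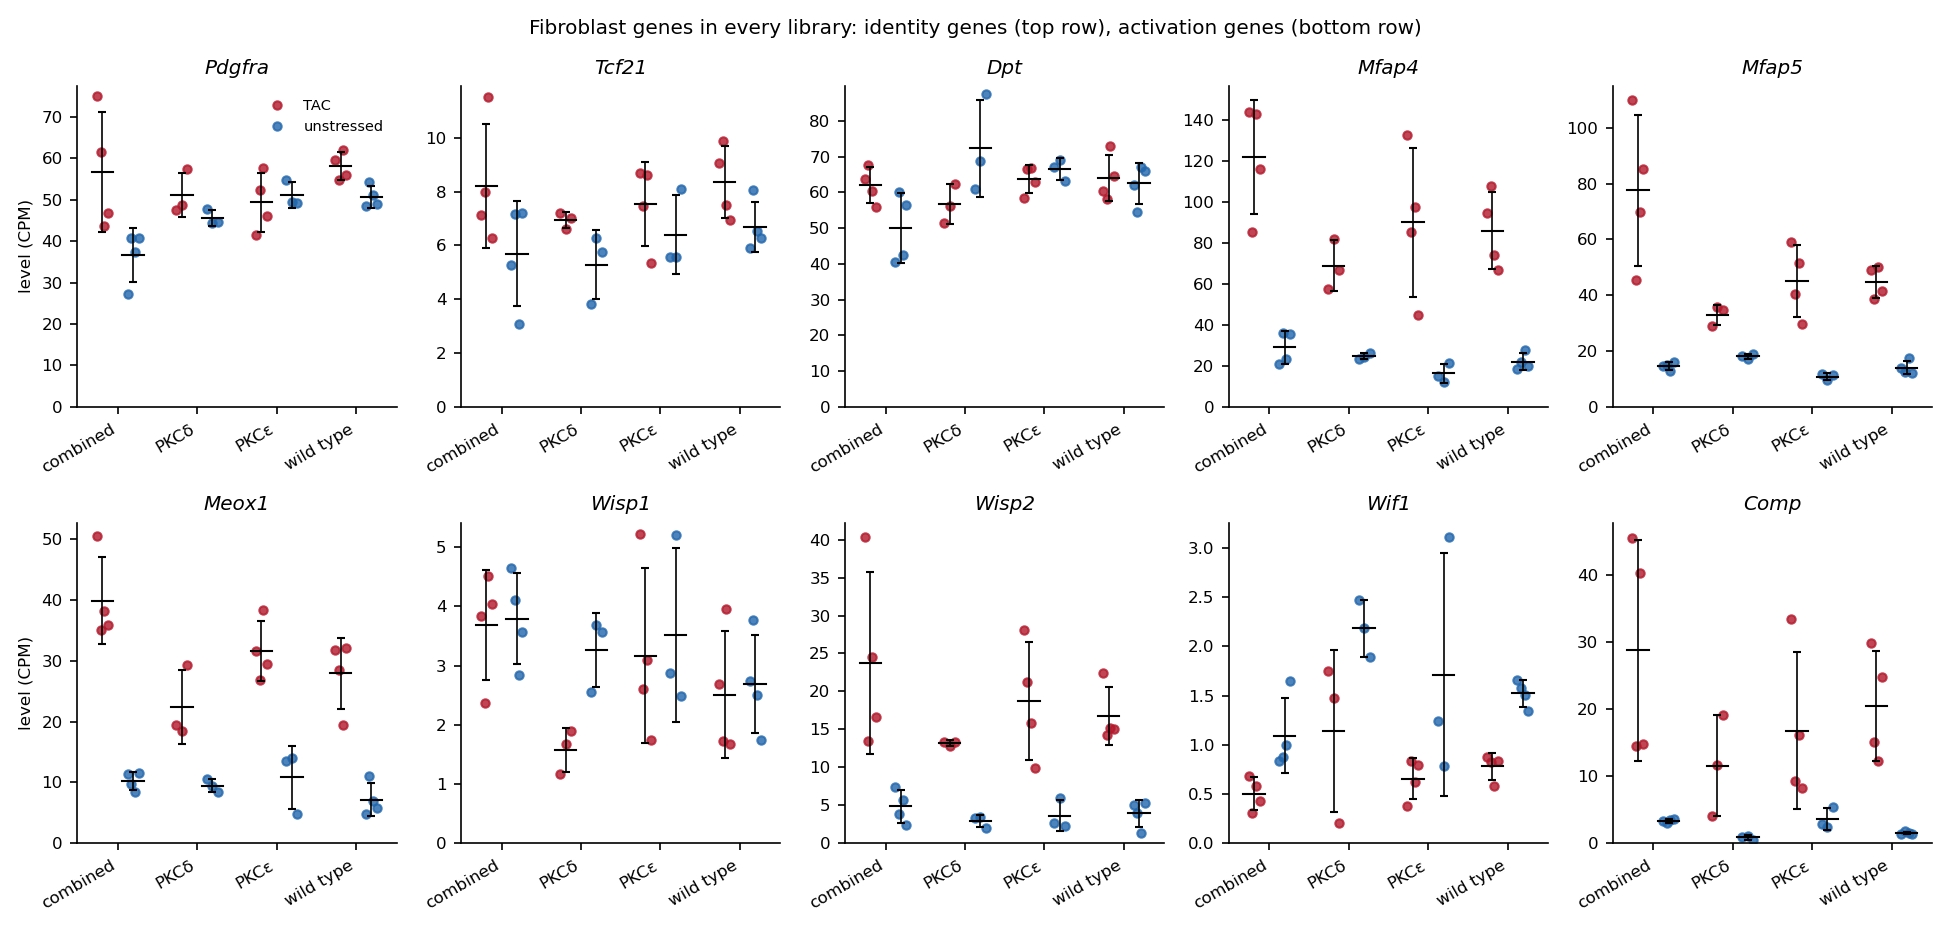
Level of each gene in CPM (linear axes from 0) in each library, TAC in red and unstressed in blue for each genotype, with the group mean as a long bar and the SD as whiskers. Red points stand clear of blue points for Mfap4, Mfap5, Meox1 and Wisp2, with 15 of 15 TAC libraries above the highest unstressed library, whereas Pdgfra, Tcf21, Dpt and Wisp1 overlap.

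Levels are given as CPM, the share of a library's counts in genes, scaled between libraries with TMM factors. Counts in genes ranged from 10523709 to 17314739 per library. Per kilobase of exon, the median library held 36.2 CPM of Dpt and 23.3 of Mfap4, the most abundant of the 10, then 8.26 of Meox1, 8.09 of Mfap5, 5.18 of Wisp2, 4.9 of Pdgfra, 2.99 of Tcf21 and 1.84 of Comp. Wisp1 at 0.51 and Wif1 at 0.359 CPM per kilobase were the scarcest, with 18 to 82 reads of Wisp1 and only 3 to 40 of Wif1 in a library, so that counting error is wide for both. The fibroblast label could be checked only against the tissue, since cells were not separated. The 18 other resident fibroblast genes listed, such as Dcn and Col1a1, were all measured, and their summed level ran from 2560 to 6630 CPM over the groups, beside 99000 to 133000 CPM of 10 cardiomyocyte markers. In such bulk RNA, more cells of a type and more RNA per cell cannot be told apart.

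The targeted gene Prkce stood at 7.25 to 11.0 CPM in TAC and 6.59 to 9.19 CPM in unstressed libraries labelled combined or PKCε, against 24.0 to 44.7 CPM in TAC and 42.4 to 52.9 CPM in unstressed libraries labelled PKCδ or wild type, leaving out the library labelled combined TAC replicate 2, which held 31.5 CPM and went against its label. Wild-type TAC replicate 2 held the 24.0 CPM, the lowest of its group. Myh2, a skeletal muscle myosin gene singled out after its values were seen, stood at 0.152 CPM in combined TAC replicate 2 against 6.27 to 7.65 CPM in the other 3 libraries of that group, and at 10.2 CPM in wild-type TAC replicate 2 against 0.0671 to 0.278 CPM in its other 3. Whether the labels of these 2 libraries were exchanged was not tested. Values with both left out stand beside the main results between combined and wild-type TAC hearts and wherever leaving them out ended or made a member's call. Whole-gene counts do not check the PKCδ label, with Prkcd at 20.6 ± 4.12 CPM in combined, 18.9 ± 1.66 in PKCδ and 23.1 ± 3.51 in wild-type hearts after TAC (SD, n = 4, 3 and 4). Xist was at 1 CPM or above in 22 of 23 libraries labelled male, and Y-linked transcripts reached 1 CPM in 4 of 6 labelled female, so the sex label entered only as an alternative. No unstressed library was labelled female. The female labels fell on combined TAC replicates 1, 2 and 4, PKCδ TAC replicates 2 and 3 and wild-type TAC replicate 4. A sex term is therefore partly confounded with condition and genotype. The labels do not tie libraries to animals, and the p-values measure the spread between libraries, which may be technical.

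Of the identity genes, Dpt (GRCm38, chromosome 1, 164796663 to 164824274, plus strand) and Pdgfra (chromosome 5, 75151322 to 75198206, plus strand) were the 2 members lower in unstressed combined than in wild-type hearts, and Tcf21 (chromosome 10, 22817263 to 22820143, minus strand) encodes a factor of the class that binds the E-box CANNTG. Their promoters are shown for that reason, 250 bases before to 50 after the transcript start in the RefSeq table for GRCm38.p6 (for Pdgfra a start downstream of the first base of the gene given above), in the direction of transcription, with each CANNTG in capitals. The regions are chr1:164796413-164796712, chr5:75152001-75152300 and chr10:22820094-22820393.
Dpt: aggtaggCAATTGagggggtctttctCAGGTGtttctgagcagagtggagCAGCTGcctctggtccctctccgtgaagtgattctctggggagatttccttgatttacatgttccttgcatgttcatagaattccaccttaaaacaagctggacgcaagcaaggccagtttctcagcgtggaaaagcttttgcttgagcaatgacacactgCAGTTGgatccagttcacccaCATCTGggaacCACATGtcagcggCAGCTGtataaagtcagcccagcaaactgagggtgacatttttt
Pdgfra: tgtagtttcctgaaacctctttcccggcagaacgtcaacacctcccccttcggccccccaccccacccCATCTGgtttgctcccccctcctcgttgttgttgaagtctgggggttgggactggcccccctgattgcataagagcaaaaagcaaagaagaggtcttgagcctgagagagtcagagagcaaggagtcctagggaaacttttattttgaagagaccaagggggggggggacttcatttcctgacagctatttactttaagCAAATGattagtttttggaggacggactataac
Tcf21: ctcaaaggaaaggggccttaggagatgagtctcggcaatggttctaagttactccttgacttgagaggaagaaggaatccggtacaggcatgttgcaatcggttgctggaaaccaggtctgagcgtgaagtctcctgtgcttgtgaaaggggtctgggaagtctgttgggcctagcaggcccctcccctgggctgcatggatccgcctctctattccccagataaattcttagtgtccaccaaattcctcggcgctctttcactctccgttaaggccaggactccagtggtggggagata
The motif reads alike on both strands. It occurs 7 times in the Dpt window, 2 times in that of Pdgfra and 0 times in that of Tcf21, and 72.3% of the 32851 promoters in the table hold at least 1 copy. A match is a description of the letters and not of binding.

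Mfap4 (chromosome 11, 61485431 to 61488708, plus strand) had 144, 85.2, 143 and 116 CPM in combined TAC hearts, against 21.1, 36.2, 23.2 and 35.6 CPM in combined unstressed hearts. It had 57.5, 82.2 and 67.0 CPM in PKCδ TAC hearts, against 23.6, 24.3 and 26.5 CPM in PKCδ unstressed hearts. The lowest of these TAC values lay above the highest unstressed value in either genotype. PKCε TAC hearts had 133, 85.4, 97.6 and 44.9 CPM, against 15.3, 12.2 and 21.4 CPM in PKCε unstressed hearts. Wild-type TAC hearts had 94.9, 108, 74.3 and 66.8 CPM, against 18.4, 22.1, 27.9 and 20.1 CPM in wild-type unstressed hearts. TAC raised Mfap4 in each genotype, by 2.07 ± 0.26 in combined, 1.47 ± 0.31 in PKCδ, 2.46 ± 0.31 in PKCε and 1.97 ± 0.27 in wild-type hearts (log2 fold change ± SE). The adjusted p values, from edgeR's quasi-likelihood test with Benjamini-Hochberg adjustment over all genes, were 2.3e-06, 0.0015, 9.1e-06 and 1.4e-05. Exons of Mfap4 share 4.6% of their length with Mapk7 on the opposite strand, and the libraries carry no strand, so reads there cannot be assigned to either gene alone.

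Mfap5 (chromosome 6, 122513584 to 122529290, plus strand) had 110.0, 45.5, 70.0 and 85.1 CPM in combined TAC hearts, against 14.8, 14.9, 12.9 and 16.1 CPM in combined unstressed hearts. Its second value belongs to the library whose Prkce went against the label, and is the lowest of the group. PKCδ TAC hearts had 29, 35.7 and 34.6 CPM, against 18.2, 17.2 and 19.1 CPM in PKCδ unstressed hearts, the smallest gap of the 4 genotypes. PKCε TAC hearts had 59.2, 40.3, 51.4 and 29.7 CPM, against 11.7, 9.53 and 11.3 CPM in PKCε unstressed hearts. Wild-type TAC hearts had 49.0, 38.5, 50.1 and 41.6 CPM, against 14.1, 12.5, 17.6 and 12.2 CPM in wild-type unstressed hearts. Mfap5 rose 5.29-fold in combined hearts (log2 fold change 2.4 ± 0.21, adjusted p = 7.8e-09), and this rise was 2.59 with both doubted libraries left out. It rose 1.82-fold in PKCδ hearts (0.86 ± 0.24, adjusted p = 0.011), 4.18-fold in PKCε hearts (2.06 ± 0.24, adjusted p = 2.8e-06) and 3.2-fold in wild-type hearts (1.68 ± 0.21, adjusted p = 3.6e-06).

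Meox1 (chromosome 11, 101877510 to 101894354, minus strand), the only transcription factor among the activation genes, had 50.4, 35.1, 38.2 and 35.8 CPM in combined TAC hearts, against 11.4, 9.67, 8.43 and 11.5 CPM in combined unstressed hearts. PKCδ TAC hearts had 19.4, 18.4 and 29.3 CPM, against 10.5, 9.45 and 8.47 CPM in PKCδ unstressed hearts. In both genotypes every TAC value was above every unstressed value. PKCε TAC hearts had 31.6, 26.9, 38.4 and 29.5 CPM, against 13.6, 14.0 and 4.9 CPM in PKCε unstressed hearts. Wild-type TAC hearts had 31.7, 28.4, 19.5 and 32.1 CPM, against 4.9, 11.0, 6.93 and 5.82 CPM in wild-type unstressed hearts. Meox1 rose by 1.95 ± 0.25 in combined, 1.24 ± 0.3 in PKCδ, 1.56 ± 0.28 in PKCε and 1.96 ± 0.27 in wild-type hearts (log2, SE), with adjusted p of 1.6e-06, 0.0038, 0.00028 and 7.4e-06.

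Wisp2 (chromosome 2, 163820752 to 163833146, plus strand) had 40.3, 13.5, 24.6 and 16.7 CPM in combined TAC hearts, against 7.48, 3.81, 5.76 and 2.4 CPM in combined unstressed hearts. PKCδ TAC hearts had 13.4, 12.8 and 13.4 CPM, against 3.32, 3.51 and 2.04 CPM in PKCδ unstressed hearts. The 3 PKCδ TAC libraries were the most alike of any TAC group for this gene. PKCε TAC hearts had 28.1, 21.2, 15.8 and 9.96 CPM, against 2.68, 5.98 and 2.33 CPM in PKCε unstressed hearts. Wild-type TAC hearts had 22.4, 14.3, 15.2 and 15.0 CPM, against 5.05, 4.06, 1.41 and 5.28 CPM in wild-type unstressed hearts. The 4 rises were close in size, 2.29 ± 0.4, 2.17 ± 0.52, 2.37 ± 0.48 and 2.04 ± 0.42 in combined, PKCδ, PKCε and wild-type hearts (log2, SE), with adjusted p of 7.1e-05, 0.003, 0.00069 and 0.00056.

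Comp (chromosome 8, 70373548 to 70382066, plus strand) showed the widest range of the 10, its highest group mean being 32.8 times its lowest. Combined TAC hearts had 45.6, 14.5, 40.3 and 14.8 CPM, against 3.39, 3.0, 3.51 and 3.57 CPM in combined unstressed hearts. PKCδ TAC hearts had 4.02, 11.7 and 19.1 CPM, against 0.936, 1.17 and 0.53 CPM in PKCδ unstressed hearts. In PKCδ hearts the groups did not overlap, although 1 TAC library lay below the highest unstressed library of the series, the third of the PKCε group. PKCε TAC hearts had 33.5, 9.25, 16.2 and 8.29 CPM, against 2.87, 2.51 and 5.45 CPM in PKCε unstressed hearts. Wild-type TAC hearts had 29.9, 15.1, 12.3 and 24.8 CPM, against 1.37, 1.8, 1.51 and 1.4 CPM in wild-type unstressed hearts. Comp rose 8.55-fold in combined, 13.2-fold in PKCδ, 4.6-fold in PKCε and 13.4-fold in wild-type hearts (log2 fold change 3.1 ± 0.54, 3.72 ± 0.94, 2.2 ± 0.61 and 3.75 ± 0.66). The adjusted p values were 6.6e-05, 0.0015, 0.0086 and 6.4e-05.

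Counted over the 10 genes, TAC raised 8 and lowered 1 in combined hearts, where 43.8% of all genes tested were called (22.0% higher, 21.8% lower). It raised 5 and lowered 2 in PKCδ hearts, beside 26.9% of all genes (12.9% higher, 14.0% lower). It raised 5 and lowered 1 in PKCε hearts, beside 28.9% (14.5% higher, 14.3% lower), and raised 5 and lowered 0 in wild-type hearts, beside 35.7% (17.8% higher, 17.9% lower). Mfap4, Mfap5, Meox1, Wisp2 and Comp are the 5 that rose in every genotype. These 20 calls held under every alternative run: another normalization, no filter on low counts, the sex label as a term, DESeq2, both doubted libraries left out, and each of the 29 libraries left out in turn. The 9 calls in combined hearts were 6 with both doubted libraries left out, where Tcf21, Dpt and Wif1 no longer passed and 5889 of 13735 genes were called. They were 7 without the filter, with the sex label or with replicate number as a block. The count in wild-type hearts was 5 in each of these, and that in PKCδ hearts was 5 without the filter.

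**Figure D2:**
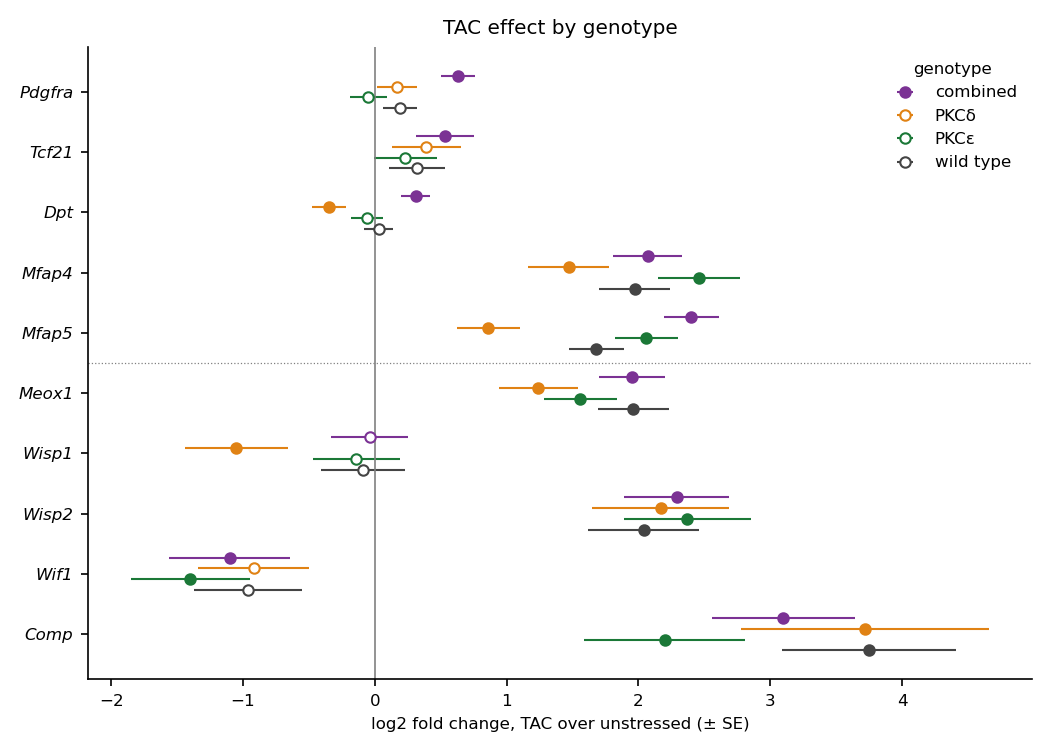
TAC effect on each gene in combined, PKCδ, PKCε and wild-type hearts, as log2 fold change of TAC over unstressed with its SE. Filled points passed an adjusted p of 0.05 and open points did not, and the dotted line parts identity genes (above) from activation genes (below). Mfap4, Mfap5, Meox1, Wisp2 and Comp lie to the right of 0 in each genotype, from 0.86 for Mfap5 in PKCδ hearts to 3.75 for Comp in wild-type hearts.

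Pdgfra had 75.1, 61.5, 43.6 and 46.8 CPM in combined TAC hearts, against 27.2, 40.9, 37.4 and 40.9 CPM in combined unstressed hearts. The groups did not overlap, and Pdgfra rose by 0.63 ± 0.13 (log2, SE, adjusted p = 0.00041), or by 0.59 with both doubted libraries left out (adjusted p = 0.0024). The TAC effect was 0.17 ± 0.15 in PKCδ hearts (adjusted p = 0.46), -0.05 ± 0.14 in PKCε hearts (0.83) and 0.19 ± 0.13 in wild-type hearts (0.26), none past the threshold. Their 95% intervals were -0.15 to 0.48, -0.35 to 0.24 and -0.08 to 0.47 log2 units. Exons of Pdgfra share 6.5% of their length with other annotated genes, among them Mir7025.

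Tcf21 had 7.11, 7.98, 11.5 and 6.26 CPM in combined TAC hearts, against 5.26, 7.18, 3.09 and 7.21 CPM in combined unstressed hearts. These groups overlapped, and the rise of 0.53 ± 0.22 (log2, SE) passed narrowly, with an adjusted p of 0.047. The call ended when any of 14 libraries was left out (adjusted p 0.051 to 0.25), 4 of them in the compared groups, combined TAC replicates 2 and 3 and combined unstressed replicates 1 and 3. The adjusted p was 0.065 with both doubted libraries left out and 0.061 without the filter on low counts. In the other genotypes the effect was 0.39 ± 0.26 in PKCδ, 0.23 ± 0.24 in PKCε and 0.32 ± 0.21 in wild-type hearts, with adjusted p of 0.27, 0.49 and 0.25.

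Dpt had 63.8, 67.8, 60.5 and 55.9 CPM in combined TAC hearts, against 40.6, 60.1, 42.6 and 56.4 CPM in combined unstressed hearts. PKCδ TAC hearts had 51.3, 56.3 and 62.4 CPM, against 60.9, 68.8 and 87.4 CPM in PKCδ unstressed hearts. The test placed Dpt higher in combined TAC hearts (0.31 ± 0.11, log2, SE, adjusted p = 0.025) and lower in PKCδ TAC hearts (-0.35 ± 0.13, adjusted p = 0.04), with overlap of the groups in both. The first call ended without combined TAC replicate 1 or 2 or combined unstressed replicate 1 or 3 (adjusted p 0.058 to 0.12), with the sex label as a term (0.18) and with both doubted libraries left out (0.079). The second ended without PKCδ TAC replicate 1 or 2, PKCδ unstressed replicate 2 or 3, or combined unstressed replicate 4 (0.053 to 0.33), with RLE factors (0.051) and without the filter on low counts (0.08), and was -0.19 without PKCδ unstressed replicate 3. Dpt stood at -0.06 ± 0.12 in PKCε hearts (adjusted p = 0.75) and 0.03 ± 0.11 in wild-type hearts (0.84).

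Wisp1 (chromosome 15, 66891369 to 66923201, plus strand) had 1.17, 1.67 and 1.89 CPM in PKCδ TAC hearts, against 2.55, 3.68 and 3.56 CPM in PKCδ unstressed hearts, and these groups did not overlap. It fell there by 1.05 on the log2 scale (SE 0.39, adjusted p = 0.042). The call ended without any of the 3 PKCδ TAC libraries, PKCδ unstressed replicate 2 or 3, or combined unstressed replicate 4 (adjusted p 0.053 to 0.15), with the sex label as a term (0.16) and without the filter on low counts (0.066). Combined hearts had 3.83, 2.36, 4.51 and 4.03 CPM after TAC, against 4.64, 4.1, 2.84 and 3.57 CPM when unstressed. Wild-type hearts had 2.68, 1.72, 3.95 and 1.67 CPM after TAC, against 2.74, 3.76, 2.51 and 1.74 CPM when unstressed. These groups overlapped widely, at -0.04 ± 0.29 in combined, -0.14 ± 0.33 in PKCε and -0.09 ± 0.32 in wild-type hearts (log2, SE, adjusted p 0.93, 0.8 and 0.85), so that Wisp1 did not follow its relative Wisp2.

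Wif1 (chromosome 10, 121034004 to 121100642, plus strand) had negative TAC estimates in all 4 genotypes. Combined TAC hearts had 0.684, 0.304, 0.586 and 0.434 CPM, against 0.831, 0.879, 1.0 and 1.65 CPM in combined unstressed hearts. Wild-type TAC hearts had 0.872, 0.829, 0.583 and 0.836 CPM, against 1.66, 1.58, 1.51 and 1.34 CPM in wild-type unstressed hearts. Neither pair of groups overlapped, although each value rests on a small number of reads. Wif1 fell by 1.1 ± 0.46 in combined hearts (log2, SE, adjusted p = 0.046) and by 1.4 ± 0.45 in PKCε hearts (adjusted p = 0.016), and stood at -0.92 ± 0.42 in PKCδ (0.11) and -0.96 ± 0.41 in wild-type hearts (0.062).

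None of these Wif1 results was settled by the libraries at hand. PKCε hearts had 0.381, 0.831, 0.621 and 0.797 CPM after TAC, against 1.24, 0.78 and 3.11 CPM when unstressed, and without the unstressed library at 3.11 CPM the change was -0.6 (adjusted p = 0.41). Without PKCε TAC replicate 1 it was -1.21 (adjusted p = 0.057). The call in combined hearts ended without any of 16 libraries (adjusted p 0.05 to 0.19), 5 of them in the compared groups (combined TAC replicates 2, 3 and 4 and combined unstressed replicates 3 and 4), with the sex label as a term (-0.77, adjusted p = 0.28), without the filter on low counts (0.052) and with both doubted libraries left out (-0.94, 0.11). In PKCδ hearts, with 1.75, 1.47 and 0.203 CPM after TAC against 2.47, 2.18 and 1.89 CPM when unstressed, the call was made only without PKCδ TAC replicate 1 (-1.37, adjusted p = 0.045). In wild-type hearts it was made at a fold change of -0.95 without PKCδ TAC replicate 3 or PKCε unstressed replicate 2 or 3 (adjusted p 0.025 to 0.05).

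The levels of the 5 activation genes were set against those of the 5 identity genes as a balance, a description without a test. It is the mean log2 CPM of the activation genes minus that of the identity genes. This balance stood at -2.45 ± 0.3 in combined TAC against -2.48 ± 0.37 in combined unstressed hearts, and at -2.64 ± 0.09 in PKCδ TAC against -3.03 ± 0.31 in PKCδ unstressed hearts (SD, n = 4, 4, 3 and 3). It stood at -2.43 ± 0.16 in PKCε TAC against -2.49 ± 0.25 in PKCε unstressed hearts, and at -2.5 ± 0.23 in wild-type TAC against -3.02 ± 0.31 in wild-type unstressed hearts (n = 4, 3, 4 and 4). In combined and PKCε hearts the 2 conditions differed by less than their SD, the mean of either set being higher after TAC. In combined hearts the identity mean was 5.58 after TAC against 4.4 when unstressed, and the activation mean 3.13 against 1.92. The identity mean carries Mfap4 and Mfap5, and the choice of identity genes moved the balance. Without replicate 2 it was -2.33 ± 0.22 in combined TAC and -2.43 ± 0.24 in wild-type TAC hearts (n = 3 each). With only Pdgfra and Tcf21 as identity genes it was -1.28 ± 0.43 in combined TAC against -1.91 ± 0.41 in combined unstressed hearts, and -1.79 ± 0.19 in PKCδ TAC against -2.4 ± 0.28 in PKCδ unstressed hearts. It was then -1.42 ± 0.29 in PKCε TAC against -2.3 ± 0.23 in PKCε unstressed hearts, and -1.61 ± 0.24 in wild-type TAC against -2.7 ± 0.19 in wild-type unstressed hearts.

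The ablations were next compared with wild type in hearts without TAC. In combined hearts 2 of the 10 genes were lower and 0 higher, where 29.2% of all genes were called (15.3% higher, 13.9% lower), so the members' share lay near the background. Pdgfra was below every wild-type library, with 27.2, 40.9, 37.4 and 40.9 CPM in combined unstressed hearts, against 48.5, 54.3, 51.1 and 49.1 CPM in wild-type unstressed hearts. It fell by 0.47 ± 0.13 (log2, SE, adjusted p = 0.0097). That call ended without combined unstressed replicate 1, where Pdgfra fell by 0.36 and the adjusted p was 0.05 after rounding. Combined unstressed replicates 2 and 4 were closer than the rest over all genes (chi-square per degree of freedom 1.58, against 10.3 to 15.9 for the other pairs of that group), and the Pdgfra call held without either (adjusted p = 0.0088 and 0.009). Dpt had 40.6, 60.1, 42.6 and 56.4 CPM in combined unstressed hearts, against 62.2, 54.6, 67.2 and 66.1 CPM in wild-type unstressed hearts, with overlap. Dpt fell by 0.32 ± 0.11 (adjusted p = 0.03), a call that ended without combined unstressed replicate 1 or 3 or wild-type unstressed replicate 1, 3 or 4 (adjusted p 0.051 to 0.14) and held without combined unstressed replicate 2 or 4 (0.0068 and 0.02). The same combined unstressed libraries enter the TAC effect in combined hearts. The lower unstressed levels of Pdgfra and Dpt and their rises with TAC there are therefore not independent results. After TAC the combined hearts stood at -0.04 ± 0.13 and -0.05 ± 0.11 from wild type for these genes (log2, SE). Meox1 stood at 0.52 ± 0.28 (adjusted p = 0.17) and passed only without wild-type unstressed replicate 2 (0.81, adjusted p = 0.039).

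Other genes of the tissue were counted in the same comparison, where 29.2% of all genes were called (15.3% higher, 13.9% lower). Of the 18 other resident fibroblast genes, 5 were lower and 0 higher in combined than in wild-type unstressed hearts, among them Gsn (-0.51 ± 0.09, adjusted p = 0.00018), Scara5 (-0.57 ± 0.12, adjusted p = 0.00047) and the collagen-binding receptor Ddr2 (-0.39 ± 0.1, adjusted p = 0.0058). Of 10 endothelial markers 5 were lower and 0 higher, and their summed level was 1110 to 1270 CPM in combined against 1350 to 1380 CPM in wild-type hearts. Of 10 pericyte and smooth muscle markers 4 were lower, with summed levels of 1370 to 1610 CPM against 1520 to 1600 CPM, and of 9 macrophage markers 3 were higher, with 436 to 447 CPM against 355 to 398 CPM. Of 5 epicardial and mesothelial markers tested 2 were higher and 0 lower. The 8 listed summed to 9.26 to 13.5 CPM in combined against 5.88 to 7.51 CPM in wild-type hearts. No marker of these lists was at 0 throughout either group. The summed level of the 18 resident fibroblast genes was 2560 to 3100 CPM in combined against 3070 to 3370 CPM in wild-type hearts. Taken in either direction, the resident fibroblast and macrophage counts lay near the 29.2% of all genes. Whether the makeup of cells had a part in the lower Pdgfra and Dpt was not tested.

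Neither single ablation gave a call among the 10 genes in unstressed hearts. In PKCδ against wild-type hearts 0 of 10 passed, beside 5.37% of all genes, and in PKCε against wild-type hearts 0 of 10, beside 3.0%. At an unadjusted p under 0.05 the count was also 0 in each, and DESeq2 called 0 in each. The estimates ranged from -0.8 (Comp) to 0.51 (Wif1) in PKCδ and from -0.42 (Mfap4) to 1.27 (Comp) in PKCε hearts. Comp did not overlap between groups in either, at 0.936, 1.17 and 0.53 CPM in PKCδ and 2.87, 2.51 and 5.45 CPM in PKCε hearts, against 1.37, 1.8, 1.51 and 1.4 CPM in wild-type hearts. Its 95% intervals were -2.95 to 1.35 and -0.35 to 2.88 log2 units, too wide to place it.

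**Figure D3:**
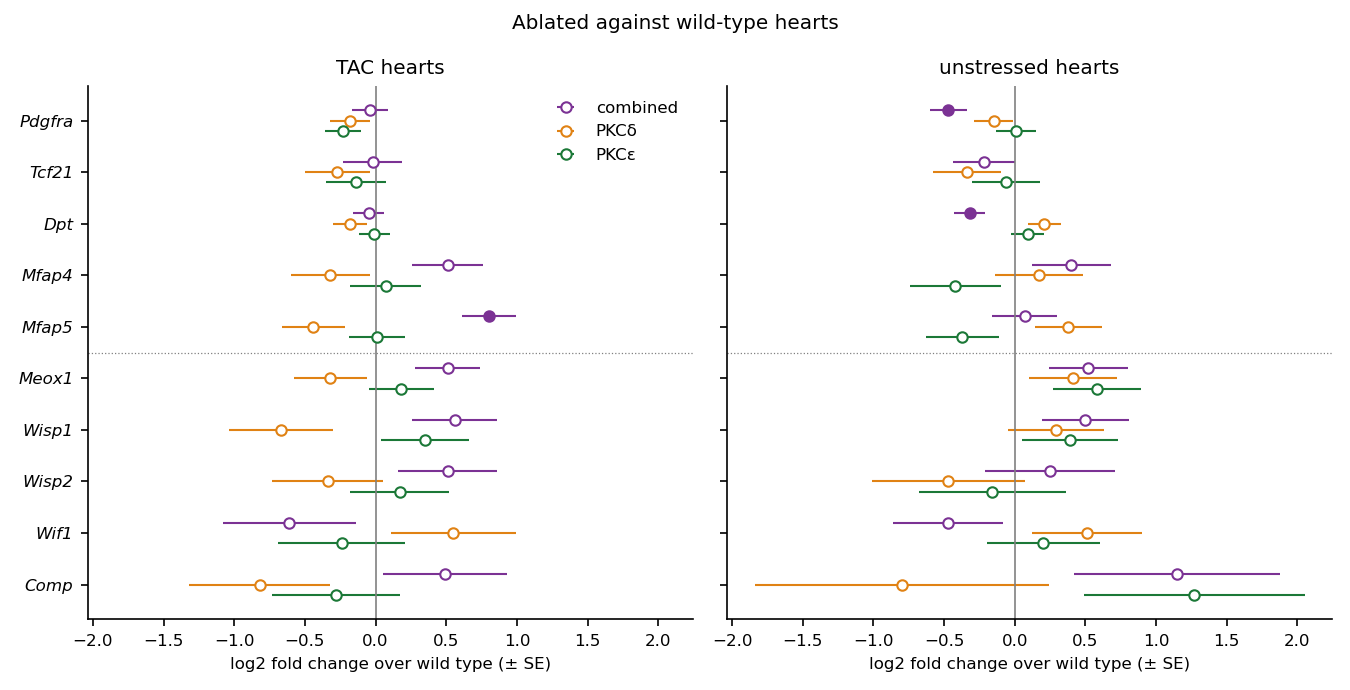
Difference of combined, PKCδ and PKCε hearts from wild type for each gene, as log2 fold change with its SE, after TAC (left) and in unstressed hearts (right). Filled points passed an adjusted p of 0.05, which were Mfap5 after TAC (0.8) and Pdgfra (-0.47) and Dpt (-0.32) in unstressed hearts, all in the combined ablation.

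After TAC the combined ablation stood above wild type for 1 of the 10 genes, Mfap5, beside 6.76% of all genes called (4.22% higher, 2.54% lower). Mfap5 had 110.0, 45.5, 70.0 and 85.1 CPM in combined TAC hearts, against 49.0, 38.5, 50.1 and 41.6 CPM in wild-type TAC hearts. The groups overlapped through combined TAC replicate 2, the library against its label, which lay among the wild-type values while the other 3 lay above them. Mfap5 was 1.74-fold higher (0.8 ± 0.19, log2, SE, adjusted p = 0.02), and 0.9 higher on the log2 scale with both doubted libraries left out (adjusted p = 0.0071). The call ended without combined TAC replicate 1 (0.58, adjusted p = 0.13), without wild-type TAC replicate 2 (0.73, adjusted p = 0.061) and with the sex label as a term (0.74, adjusted p = 0.1). Meox1 did not overlap, at 50.4, 35.1, 38.2 and 35.8 CPM in combined against 31.7, 28.4, 19.5 and 32.1 CPM in wild-type TAC hearts, but its difference of 0.51 ± 0.23 did not pass (adjusted p = 0.18), nor did it with both left out (0.57, adjusted p = 0.26). Mfap4 stood at 0.51 ± 0.25 (adjusted p = 0.22), or 0.76 with both left out (adjusted p = 0.13), and Pdgfra, Tcf21 and Dpt lay between -0.05 and -0.02.

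Of the 18 other activated fibroblast genes, 2 were higher in combined than in wild-type TAC hearts: Postn, the matricellular protein periostin (1.51 ± 0.36, adjusted p = 0.02), and Thbs4 (1.45 ± 0.35, adjusted p = 0.022). Their list's median difference was 0.32, beside 0.005 over all genes. Of the 18 resident genes only Dcn passed (0.49 ± 0.13, adjusted p = 0.026). With both doubted libraries left out Postn stood at 1.52 (adjusted p = 0.02) and Thbs4 at 1.43 (0.038), the activated list's median was 0.16, and Dcn no longer passed (0.42, adjusted p = 0.12). Of 9 macrophage markers 4 were lower, with a summed level of 372 to 435 CPM in combined against 445 to 633 CPM in wild-type TAC hearts, and of 10 pericyte and smooth muscle markers 4 were lower, with 1110 to 1410 CPM against 1220 to 1500 CPM. Each of these counts was also 4 with both doubted libraries left out. Over all genes 6.76% were called in this comparison (4.22% higher, 2.54% lower). The epicardial and mesothelial markers summed to 31.8, 13.5, 27.2 and 22.4 CPM in combined against 12.9, 10.8, 9.19 and 7.73 CPM in wild-type TAC hearts, highest and lowest in the same combined libraries as Mfap5, with none at 0 throughout either group. Of the 5 tested 0 passed, at a median difference of 1.32, and with both doubted libraries left out 2 were higher, Krt8 (1.99, adjusted p = 0.038) and Krt18 (2.15, 0.044). Their part in the Mfap5 result was not tested.

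In PKCδ against wild-type TAC hearts 0 of the 10 genes passed, as did 0.0% of all genes (789 genes at an unadjusted p under 0.05, none of them a member, and 1 gene by DESeq2). Every member but Wif1 had a negative estimate, from -0.82 ± 0.5 for Comp to -0.18 for Pdgfra and Dpt, and the median was -0.32 beside -0.008 over all genes. Mfap5 did not overlap between the groups, at 29, 35.7 and 34.6 CPM in PKCδ against 49.0, 38.5, 50.1 and 41.6 CPM in wild-type TAC hearts, with a difference of -0.44 ± 0.22 and an adjusted p of 0.87. In PKCε against wild-type TAC hearts 0 of 10 passed, beside 0.0436% of all genes, also at an unadjusted p under 0.05. DESeq2 called 0 members in both. The PKCε estimates ran from -0.28 (Comp) to 0.35 (Wisp1), with a 95% interval for Mfap5 of -0.39 to 0.42.

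Whether TAC acted differently in ablated and wild-type hearts was tested as an interaction, and 0 of the 10 genes passed for any ablation. The background was 25.1% of all genes for the combined ablation, 1.27% for PKCδ and 0.0363% for PKCε. At an unadjusted p under 0.05 there were 2, 2 and 0 members in the same order. In combined hearts the TAC effect exceeded that of wild type by 0.72 ± 0.3 for Mfap5 (adjusted p = 0.08) and by 0.44 ± 0.19 for Pdgfra (adjusted p = 0.088). Mfap5 passed with DESeq2 (0.73, adjusted p = 0.035), with both doubted libraries left out (0.83, adjusted p = 0.028) and without combined TAC replicate 2 (0.91, adjusted p = 0.012). Pdgfra passed without combined TAC replicate 3 (0.54, adjusted p = 0.023) or 4 (0.52, adjusted p = 0.041).

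In PKCδ hearts the 2 members under that unadjusted threshold were Mfap5 and Dpt, whose TAC effects differed from those in wild type by -0.82 ± 0.32 and -0.39 ± 0.17 (adjusted p = 0.26 and 0.3). Wisp1 stood at -0.96 ± 0.5 (adjusted p = 0.41), so its fall in PKCδ hearts was not shown to differ from wild type. In PKCε hearts the largest departure was that of Comp, at -1.55 ± 0.9 (adjusted p = 0.72). The estimates of all comparisons with wild type share the same wild-type libraries, and each also shares ablated libraries with the TAC effect of that genotype.

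Within the 15 TAC libraries several members were correlated with each other. Of 45 pairs of members, 11 were correlated there, all positively, beside 1 in the 14 unstressed libraries (Pearson's r of log2 CPM, 100000 permutations, two-sided, Benjamini-Hochberg over the 90 pairs). The difference between the conditions was not tested. Over all pairs of the 13765 genes, 1.37% in TAC and 2.68% in unstressed libraries reached the lowest r that passed, 0.69, as did 24.4% and 2.22% of the members' pairs. That cutoff was taken from the members' own TAC pairs, so the 24.4% restates the 11 of 45 and is no separate result. With both doubted libraries left out, 10 of the 11 pairs passed in the 13 TAC libraries, an alternative chosen after seeing the data, and Wisp1 with Wisp2 did not (r = 0.69, adjusted p = 0.06 by permutation). Of the 11 pairs 3 hold Wisp1, which did not rise, and Meox1 stands only in those with Mfap5 and Comp. Mfap4 and Mfap5 had r = 0.83 and Spearman's rho = 0.83 after TAC (adjusted p = 0.0054 and 0.0061 by permutation), r = 0.78 without the 2 libraries farthest from the median, and r = 0.73 after each genotype's mean was removed. The same pair had r = 0.7 and rho = 0.76 in unstressed libraries (adjusted p = 0.036 and 0.032 by permutation), 0.63 and 0.61 under the same steps. Depth and cell makeup are shared by all genes of a library, and their part in these correlations was not tested.

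Wisp1 was a case of its own: TAC did not raise it, but within TAC libraries it followed Mfap5 with r = 0.82 and rho = 0.86 (adjusted p = 0.0054 and 0.0061 by permutation), 0.9 without the 2 farthest libraries and 0.77 after genotype means were removed. In unstressed libraries r for this pair was -0.05. Mfap5 and Meox1 had r = 0.7 after TAC (rho = 0.74, adjusted p = 0.033 and 0.032 by permutation), but 0.53 without the 2 farthest libraries and 0.32 after genotype means were removed. The other pairs that passed after TAC had 0.58 to 0.77 once genotype means were removed, and the difference was not tested. Pdgfra and Dpt had r = 0.56 after TAC and 0.67 in unstressed libraries, neither past the threshold (adjusted p = 0.13 and 0.074 by permutation), and -0.04 in unstressed libraries without the 2 farthest. The grid of correlations shows the block formed by Mfap4, Mfap5, Wisp1, Wisp2 and Comp.

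**Figure D4:**
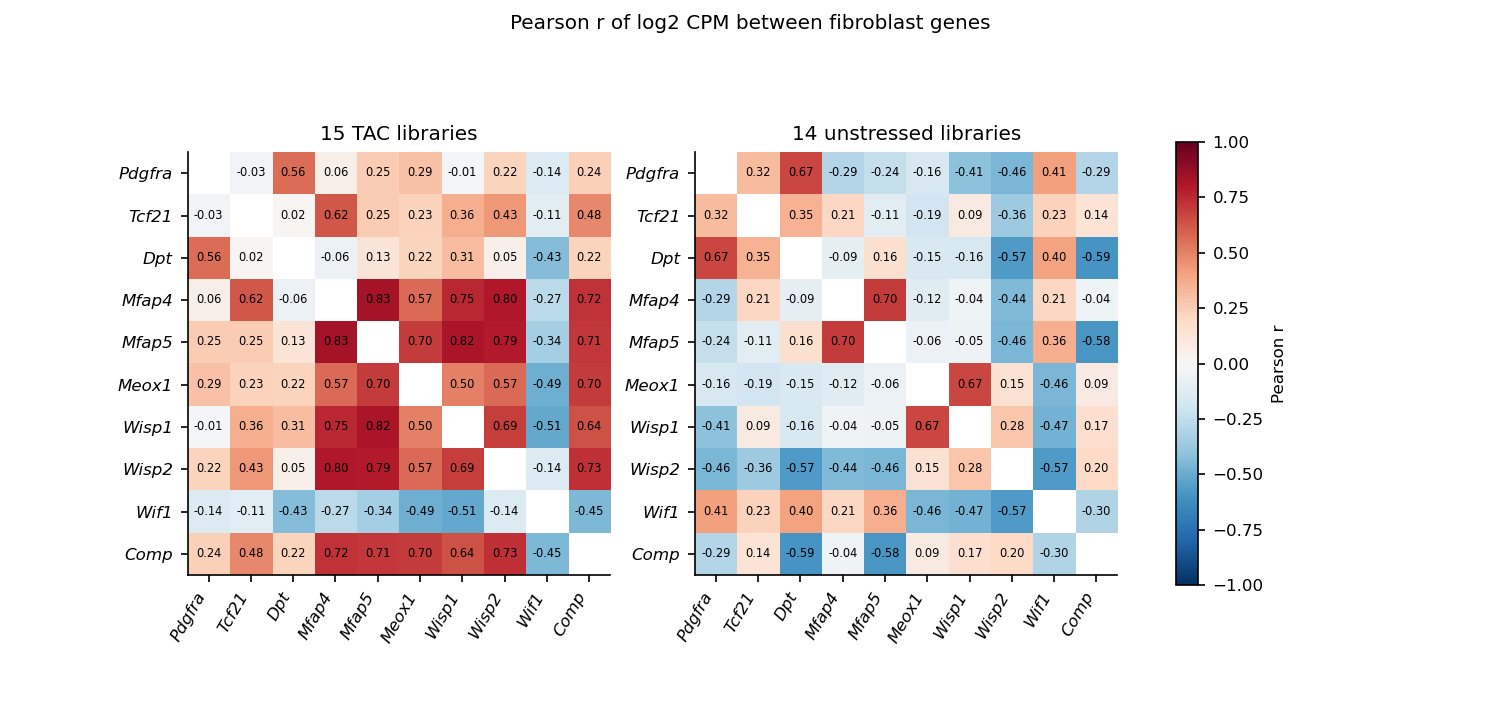
Pearson's r of log2 CPM for each pair of the 10 genes, over 15 TAC libraries (left) and 14 unstressed libraries (right), red for positive and blue for negative. After TAC, Mfap4 and Mfap5 form a red block with Wisp1, Wisp2 and Comp, as in the r of 0.83 between Mfap4 and Mfap5, and in unstressed libraries the same pairs are pale or blue, apart from Mfap4 with Mfap5 (0.7) and weakly red pairs among Wisp1, Wisp2 and Comp.

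Over all 29 libraries, the genes whose log2 CPM was most like that of each member were named by the highest Pearson's r among the genes tested, as a description. Mfap5 was most like the matrix proteoglycan gene Bgn (r = 0.97, 0.92 within TAC libraries and 0.69 within unstressed libraries), followed by Col8a1 and Serpinf1. Mfap4 was most like Mgp (0.97, with 0.92 and 0.61), followed by Dkk3 and Ngef. Ltbp2, which encodes a microfibril-associated protein, stood among the 3 most alike for Meox1 (0.94), Wisp2 (0.95) and Comp (0.93). Within TAC libraries these were 0.76, 0.81 and 0.89, and within unstressed libraries 0.52, 0.7 and 0.38. The identity genes that moved little had a lower r over the 29 libraries, Pdgfra to H3f3b at 0.82, Dpt to Rdh14 at 0.78 and Tcf21 to Cercam at 0.77. An r over both conditions takes in the shift with TAC, so it does not rank likeness within a condition. Within unstressed libraries these 3 pairs had 0.82, 0.9 and 0.76, above the 0.69 and 0.61 of Mfap5 and Mfap4, and within TAC libraries 0.7, 0.32 and 0.64. Wisp1 was nearest to Ctsb (0.68) and Wif1 to Tll2 (0.78).

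Other genes of these pathways, from lists chosen with earlier results of these data known, gave the setting. Of 18 other activated fibroblast genes, TAC raised 13 and lowered 1 in combined hearts, and raised 9 in PKCδ, 11 in PKCε and 14 in wild-type hearts, with median changes of 1.73, 1.3, 2.1 and 2.21. Over all genes 43.8%, 26.9%, 28.9% and 35.7% were called in the same order. Cilp rose by 3.73 ± 0.31 in combined and 3.89 ± 0.33 in wild-type hearts (adjusted p = 1.5e-08 and 5.6e-08). Ltbp2 rose by 4.6 ± 0.42 and 4.26 ± 0.46 (2.6e-08 and 4.2e-07), and the collagen gene Col8a1 by 2.62 ± 0.21 and 2.21 ± 0.22 (4.7e-09 and 1.8e-07). Of 18 other resident genes, TAC raised 9 and lowered 1 in combined, 7 and 2 in PKCδ, 7 and 1 in PKCε and 6 and 2 in wild-type hearts, with medians of 0.42, 0.28, 0.26 and 0.21. Col1a1 and Col3a1, counted in that list, rose by 1.84 ± 0.23 and 1.84 ± 0.27 in wild-type hearts (adjusted p = 6e-06 and 3.7e-05), while the receptor gene Scara5 fell by 0.94 ± 0.12 (adjusted p = 6.4e-07). Like Mfap4 and Mfap5 among the identity genes, these collagens stood with the genes that rose.

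The relatives of Comp and of the CCN genes did not move as families either. The share of all genes called for TAC was 43.8% in combined, 26.9% in PKCδ, 28.9% in PKCε and 35.7% in wild-type hearts. Of the other 4 thrombospondins TAC raised 3 in every genotype, and in wild-type hearts it raised Thbs4 (3.9 ± 0.47, adjusted p = 1.8e-06), Thbs1 (3.44 ± 0.44, 5.3e-06) and Thbs3 (1.12 ± 0.16, 4.3e-06), while Thbs2 fell by 0.7 ± 0.18 (0.0039). Of 3 other CCN genes measured, Ctgf and Cyr61 rose in combined hearts (2.98 ± 0.38, adjusted p = 4.9e-06, and 1.48 ± 0.24, 5.2e-05). In wild-type hearts Cyr61 rose (1.05 ± 0.24, adjusted p = 0.0019) and Ctgf stood at 0.85 ± 0.38 (0.088). Nov stood at 0.28 ± 0.19 and -0.28 ± 0.17 in combined and wild-type hearts and did not pass in either.

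Of the other WNT genes listed, 2 that encode secreted antagonists, as Wif1 does, are given by value. Frzb rose by 2.27 ± 0.27 in combined and 2.06 ± 0.27 in wild-type hearts (adjusted p = 1.5e-07 and 2.1e-06), and Sfrp2 by 1.81 ± 0.28 and 2.21 ± 0.28 (4.8e-06 and 6.6e-07). Of 15 WNT antagonists and targets measured, TAC raised 5 and lowered 2 in combined, raised 6 in PKCδ, raised 5 and lowered 2 in PKCε, and raised 5 and lowered 1 in wild-type hearts, with median changes of -0.03, 0.25, 0.12 and 0.11. The share of all genes called was 43.8%, 26.9%, 28.9% and 35.7% in the same order. Of the 6 other PDGF ligands and receptors, TAC raised 3 in combined hearts, Pdgfrl, Pdgfd and Pdgfrb, and 1 in each of the other genotypes. Pdgfd rose by 1.11 ± 0.17 (adjusted p = 4.4e-06) in combined hearts, where the unstressed level was below wild type by -1.12 ± 0.17 (adjusted p = 1.7e-05), the same order of levels as for Pdgfra.

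Markers of other cells were counted beside these results. TAC changed 43.8% of all genes tested in combined, 26.9% in PKCδ, 28.9% in PKCε and 35.7% in wild-type hearts. Those called higher were 22.0%, 12.9%, 14.5% and 17.8% in the same order. TAC raised 5 of 10 endothelial markers in combined, 3 in PKCδ, 1 in PKCε and 2 in wild-type hearts, and lowered 0, 1, 1 and 0. Of 9 macrophage markers it raised 0 and lowered 2 in combined hearts, and raised 3, 3 and 7 in the others. Of 7 valve, tendon and cartilage markers measured, a tissue that makes Comp, it raised 6 in combined, 4 in PKCδ, 4 in PKCε and 6 in wild-type hearts. Their summed level was 48.8 to 156 CPM in combined TAC against 17.6 to 22.8 CPM in combined unstressed hearts, and 56.9 to 77.5 CPM in wild-type TAC against 16.3 to 19.9 CPM in wild-type unstressed hearts. Of the 9 genes listed, 1 was at 0 in every library of each unstressed group. Over all libraries Fmod ranged from 0.334 to 46.9 CPM and Prg4 from 3.74 to 84.0 CPM. Fmod is also counted among the other activated fibroblast genes. Scx and Sox9 reached 15.0 and 14.2 CPM, while Chad, Tnmd, Acan and Mkx reached only 1.37, 0.82, 2.04 and 0.288 CPM. Whether such tissue in the apex sample had a part in the rise of Comp was not tested.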

How the data were processed

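For each of 29 single-end polyA RNA-seq libraries without strand information, the authors deposited raw counts by gene symbol. The submitters' processing notes name mm10, Bowtie2, TopHat2 2.0.10, TopHat, HTSeq, DESeq and edgeR. The roles and settings of these tools, and the annotation counted, were not given in the sources used here. Library files list 23420 genes, and the 5 rows that total reads not assigned to a gene were dropped. Reads on more than 1 gene were 0.776% to 0.942% of a library and reads aligned to more than 1 place 8.01% to 14.2%. In the series table, 23391 names matched the library files and held the same counts in all of the 29 libraries. A further 27 of its names had been turned into numbers by date conversion, so the library files served for the fit.

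Groups came from the labels. The fit used the quasi-likelihood test of edgeR 4.0.16 (under R 4.3.3, with limma 3.58.1), robust dispersion, TMM factors, a low-count filter by group (13765 genes kept, all 10 members among them), group means only, and 21 residual degrees of freedom. Benjamini-Hochberg adjustment at 0.05 ran over all genes in each of 13 comparisons. Log2 CPM for the correlations, the likeness of genes and the balance used a prior count of 2. The levels by library were plotted as CPM without it. The closest replicate pair, combined unstressed replicates 2 and 4, had a chi-square per degree of freedom of 1.58, above sampling noise. The other pairs of that group had 10.3 to 15.9. Close pairs stood in other groups too, with wild-type unstressed replicates 1 and 4 at 2.29, against 7.21 to 13.4 for that group's others. PKCδ TAC replicates 1 and 2 stood at 2.54, against 5.34 and 5.36. PKCε unstressed replicates 1 and 2 stood at 2.63, against 8.45 and 13.2. Whether such pairs share a heart was not tested, and each library counted as 1 sample. Alternatives were RLE factors, no filter, the sex label as a term, replicate number as a block, DESeq2 1.42.0, 2 doubted libraries left out, each library left out, and for the balance a prior count of 0.5 or only Pdgfra and Tcf21 as identity genes. The fit was tested on simulated counts in which only wild-type TAC libraries were changed. It recovered 59.7% of 67 genes changed 1.5-fold, 89.1% of 64 changed 2-fold and 98.5% of 65 changed 4-fold. Of its 169 calls 8 were false. Far fewer genes were changed there than the 4916 called for TAC in wild-type hearts. Positions and promoters are from RefSeq GRCm38.p6 and exon lengths from GENCODE vM21, with figures by matplotlib 3.10.9 in Python 3.11.15.

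The members and lists were chosen with earlier results of these data known. Named genes were the members, Prkcd and Prkce, from each list up to 4 genes ranked first by adjusted p, and for likeness the 3 genes with the highest r per member.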

Additional observations from a re-analysis of the deposited data

Results flagged for a closer look

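In groups of 4 libraries, a value was picked out when its gap to the nearest other value was above Dixon's 95% critical share of the group's range. Of 50 such tests over the members, 2 were, and chance alone gives about 1 in 20. Wisp2 stood at 22.4 CPM in wild-type TAC replicate 1, above the 14.3 to 15.2 CPM of the other 3 libraries. Wif1 stood at 0.583 CPM in wild-type TAC replicate 3, below the 0.829 to 0.872 CPM of the other 3, on a count of 9 reads.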

How the results depend on the processing

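The 20 TAC calls of Mfap4, Mfap5, Meox1, Wisp2 and Comp kept their direction and their side of the threshold under every alternative run. Of the 130 results, 10 genes in 13 comparisons, the number that crossed the threshold was 1 with RLE factors, 4 without the filter on low counts, 4 with the sex label as a term, 4 with both doubted libraries left out and 1 with DESeq2, and no result changed sign past the threshold. The count of members called between combined and wild-type TAC hearts, 1, was 0 with the sex label as a term. The count for the interaction in combined hearts, 0, was 1 with both doubted libraries left out and 1 with DESeq2, being Mfap5 each time. With each library left out, TAC changed 6 to 9 members in combined hearts, 5 to 7 in PKCδ hearts and 5 to 6 in PKCε hearts, and 5 to 6 in wild type. It gave 0 to 3 for combined against wild-type unstressed hearts, 0 to 1 for the same after TAC, 0 to 1 for the interaction in combined hearts and 0 throughout the others. The cause was not tested. Replicate numbers do not pair the samples (r of same-numbered deviations from -0.134 to 0.181), and with the replicate block Tcf21 (0.5, adjusted p = 0.059) and Wif1 (-1.09, adjusted p = 0.061) lost their calls for TAC in combined hearts, where 7 members were called in place of 9, while no other member's call changed. For Wif1, on 3 to 40 reads a library, and Wisp1, on 18 to 82, depth limits what could be seen.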
